A study of Mus musculus with 12 samples.

Results

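Serpins are a superfamily of protease inhibitors, described here in mouse lung RNA. Members were all genes whose symbol starts with Serpin, a clade letter from a to i and a number, and that reached at least 0.5 CPM (library-scaled read counts after TMM, the trimmed-mean scaling between libraries) in at least 3 of 12 libraries. This kept 37 of the 68 serpin symbols in a table of 49585 genes. By clade, the letter after the family name, 16 were in clade A, 13 in clade B, 2 in clade E and 1 each in clades C, D, F, G, H and I. A level of 0.5 CPM was reached by 26 members in all 12 libraries and by 3 (Serpina3k, Serpina11 and Serpinb1c) in no control library. Of the 31 symbols below the minimum, 6 had no read in any library. Serpina1d, Serpina9 and Serpinb11 were the members nearest to the minimum, which they reached in 4 libraries, and Serpina1e, Serpinb3a, Serpinb3b and Serpinb3c fell just short with 2.

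Inhibitory serpins act as single-use baits. The protease cuts an exposed loop of the serpin, the loop inserts into the body of the protein, and the trapped protease is destroyed with it. Clade A holds the secreted antitrypsin and antichymotrypsin types, clade B the intracellular types of leukocytes and epithelia, and the smaller clades regulators of clotting, fibrinolysis and complement. In lung, serpins are best known for holding neutrophil elastase in check. Some members, such as the collagen chaperone encoded by Serpinh1, have lost the inhibitory function.

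The RNA was poly-A selected from mouse lung, with Balb/cJ as the strain label. Wild-type (WT) mice were compared with mice that lack Rgs4 (knockout, KO), a regulator of G protein signalling examined here for its part in asthma. Both genotypes received either Aspergillus fumigatus (Af), a mould, or the saline control PBS. The WT_PBS group held libraries 15, 16 and 17, the WT_Af group 18, 19 and 20, the KO_PBS group 9, 10 and 11, and the KO_Af group 12, 13 and 14. The sources used here do not give age, sex, the kind of Rgs4 allele, or how, when and at what dose Af was given. Nothing in the labels says whether the libraries of a group came from separate mice, so the p-values rest on library-to-library spread, which may be technical.

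The depth was 20708884 to 30229446 reads per library. Rgs4 stood at 22.9 ± 2.63 CPM in WT_PBS and 45.1 ± 3.27 CPM in WT_Af (mean ± SD, n = 3, as everywhere below), against 0.892 ± 0.282 CPM in KO_PBS and 1.15 ± 0.311 CPM in KO_Af, and the KO and WT libraries did not overlap. Markers of alveolar type 2 cells (13373 to 27106 summed CPM per library) and club cells (6975 to 20271) were abundant throughout. Libraries WT_PBS 17 and KO_Af 12 stood apart from the others of their groups in genes of stratified squamous epithelium. Of 14 such markers all 14 had reads in each of these libraries, with summed levels of 687 and 358 CPM, against 9 to 12 markers and 4.84 to 77.8 CPM elsewhere. Results that rest on these libraries are given with and without them. In whole tissue, a change in the number of cells of a type and a change in RNA per cell cannot be told apart.

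Exposure to Af was followed by higher levels of many serpins. In WT lungs 16 of the 37 members rose and 5 fell, and in KO lungs 20 rose and 4 fell (limma, Benjamini-Hochberg adjusted p under 0.05 over the 17552 genes tested, on log2(CPM + 0.5)). The exposure moved much of the transcriptome, so these counts stand against a high background: 49.1% of all genes tested were called in WT (24.9% higher, 24.2% lower) and 55.0% in KO (27.3% higher, 27.7% lower). The members were called at 56.8% and 64.9%. Calls with a rise of at least 2-fold numbered 13 in WT and 15 in KO, against 6.77% and 7.82% of all genes, and 13 members rose at least 2-fold in both genotypes, against 5.28% of all genes. The median log2 change of the members was 0.48 in WT and 0.98 in KO, beside -0.01 in either genotype over all genes. Of the members, 16 rose in both genotypes, 2 (Serpinb1b and Serping1) fell in both, and none was called in opposite directions. All 9 Serpina3 members, neighbouring copies with partly shared sequence, were among the 16, so the family counts and medians lean on 1 locus. Clade A held 9 of the 13 members that rose at least 2-fold in both. In clade B, 4 of 13 members rose in WT and 5 in KO, with median log2 0.22 and 0.67. The minimum can favour genes that are high under Af. Serpina11 and Serpinb1c, among those that rose at least 2-fold in both genotypes, reached it in no control library. Of the 30 members that reached it in at least 3 PBS libraries, 13 rose and 5 fell in WT and 17 rose and 4 fell in KO. For these 30 no 2-fold count was made, and the shares over all genes were not restricted in the same way. Without WT_PBS 17 and KO_Af 12, limma no longer called Serpinb1b (adjusted p = 0.0837) and Serpine2 (0.155) in WT, nor Serpinb6b (0.0649), Serpind1 (0.055) and Serping1 (0.0547) in KO.

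**Figure D1:**
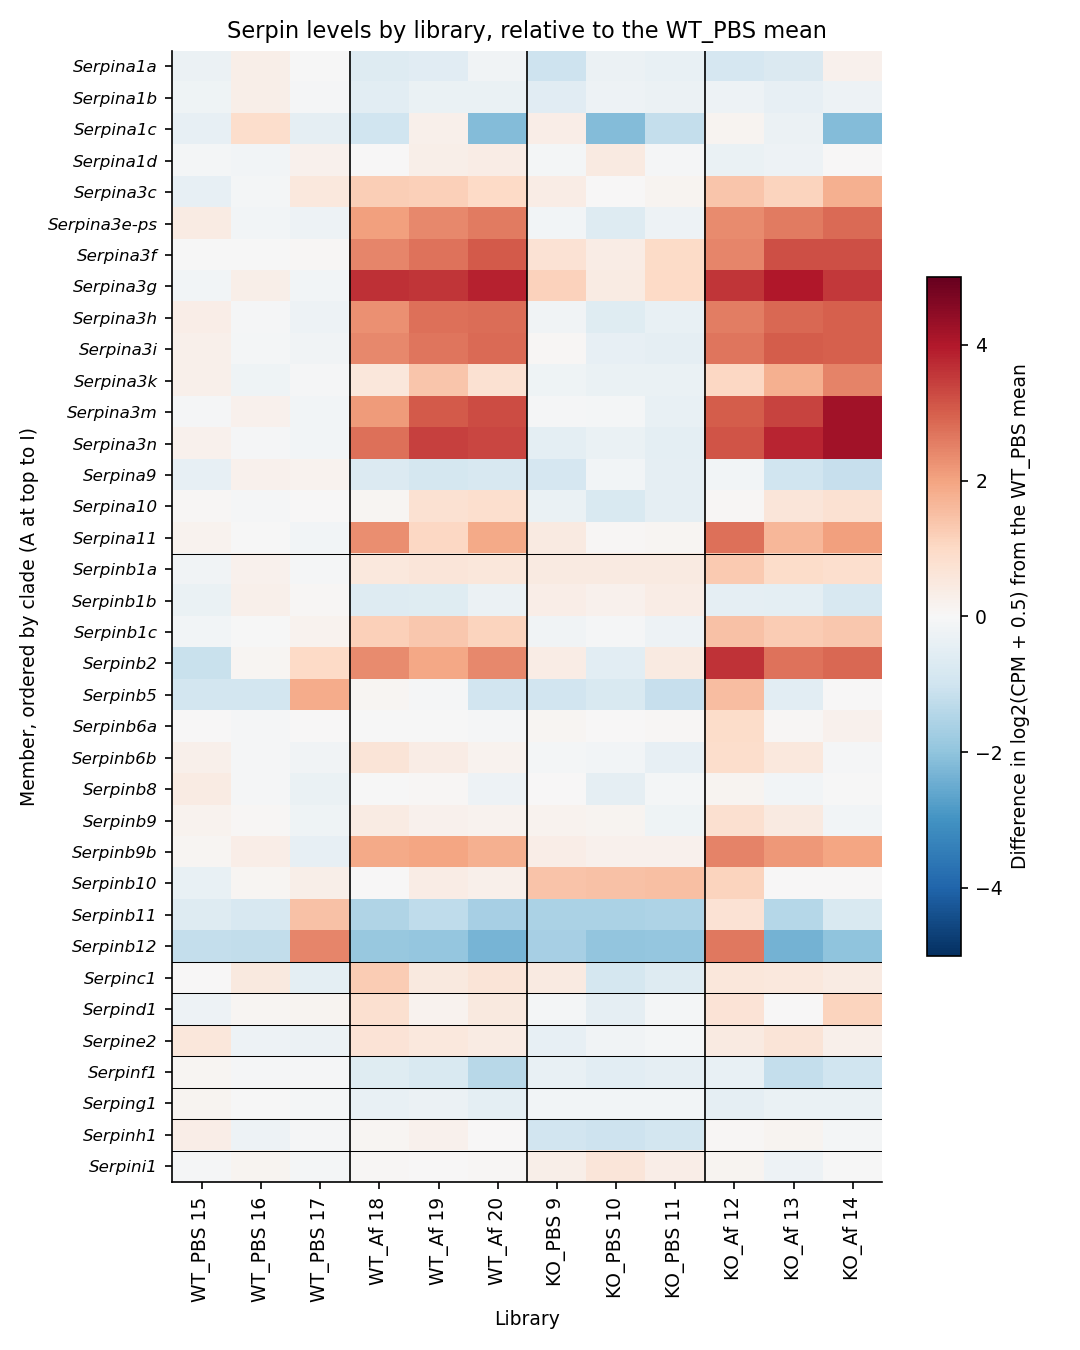
Each row is a serpin (1 member is not shown), grouped by clade, and each column a library. Colour is the difference in log2(CPM + 0.5) from the mean of the 3 WT_PBS libraries, red for higher and blue for lower. The Serpina3 rows are red in all 6 Af libraries, and Serpinb12 is reddest in WT_PBS 17 (17.2 CPM) and KO_Af 12 (19.4 CPM).

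Per kilobase of exon, the ranking of the family turned over with exposure. In WT_PBS the highest level belonged to Serping1 (274 CPM per kilobase), which encodes the C1 inhibitor of complement and the contact system, followed by Serpinh1 (167), Serpinb6b (42.2), Serpina3n (37.9) and Serpinb9 (35.9). In WT_Af Serpina3n led with 351 CPM per kilobase, ahead of Serping1 (212), Serpina3g (190), Serpina3h (180) and Serpinh1 (177). The summed level of all members went from 1867 ± 206 to 3234 ± 264 CPM in WT and from 1559 ± 32.6 to 3818 ± 353 CPM in KO. The 9 Serpina3 members supplied 9.46 ± 0.484% of this sum in WT_PBS and 46.8 ± 4.29% in WT_Af, and 11.2 ± 1.054% in KO_PBS and 50.5 ± 7.70% in KO_Af.

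All 16 clade A members lie on mouse chromosome 12 between 103614786 and 104414329 (GRCm38, GENCODE M21), and the 9 Serpina3 members occupy the distal stretch from 104146382 to 104414329. Humans have a single antichymotrypsin gene in the place of this mouse array, whose copies differ mainly in the reactive loop that selects the protease. RefSeq (GRCm38.p6) windows from 250 bases before to 50 after the start were at hand for 28 members, among them Serpina3c, Serpina3f, Serpina3g, Serpina3i and Serpina3n. These 5 promoters are shown because their genes rose together. They are aligned without gaps on a run of 8 bases that they share, a run picked after the windows were read, and the 9 capital letters mark the same aligned place in each. The capital letters end in AGAA, which is the beginning of the shared run, so this ending is the same in all by construction.
Serpina3c, chr12:104153920-104154027, minus strand: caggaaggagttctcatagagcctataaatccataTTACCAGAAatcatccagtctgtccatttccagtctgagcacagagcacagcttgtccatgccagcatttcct
Serpina3n, chr12:104406550-104406657, plus strand: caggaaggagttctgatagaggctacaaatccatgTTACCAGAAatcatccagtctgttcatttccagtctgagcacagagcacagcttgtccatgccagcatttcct
Serpina3g, chr12:104236079-104236186, plus strand: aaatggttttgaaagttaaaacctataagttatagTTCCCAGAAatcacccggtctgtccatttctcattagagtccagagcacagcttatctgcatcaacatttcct
Serpina3i, chr12:104262985-104263092, plus strand: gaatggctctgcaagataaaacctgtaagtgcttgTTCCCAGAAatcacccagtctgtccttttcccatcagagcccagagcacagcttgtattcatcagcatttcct
Serpina3f, chr12:104214388-104214495, plus strand: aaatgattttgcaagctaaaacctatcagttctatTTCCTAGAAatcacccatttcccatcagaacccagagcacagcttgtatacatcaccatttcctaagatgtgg

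The stretches of Serpina3c and Serpina3n, at opposite ends of the array and on opposite strands, were identical at 95.4% of bases, and those of the neighbours Serpina3g and Serpina3i at 83.3%. The other pairs were less alike, from 37.0% (Serpina3f with Serpina3n) to 68.5% (Serpina3c with Serpina3i). The 9 capital letters read TTACCAGAA in Serpina3c and Serpina3n, TTCCCAGAA in Serpina3g and Serpina3i, and TTCCTAGAA in Serpina3f. Only the last 3 genes match TTCNNNGAA, the palindrome that STAT factors bind, here starting 33 bases before the start of Serpina3g, 102 before that of Serpina3i, and 121 or 210 before the starts annotated for Serpina3f. On both strands, 8.30% of all 32851 promoter windows hold TTCNNNGAA. Counted by gene, 6 of the 28 members hold it in a window. Other motifs searched in the same windows were TTCNNNNGAA of STAT6 (3 members, 6.95% of all windows), the NF-kappa B consensus (3 members, 4.51%), TGANTCA of AP-1 (10 members, 7.81%), TTGCNNAA of C/EBP (7 members, 10.8%) and GAANNTTCNNGAA of the heat shock element (0 members, 0.603%). The 28 members have 34 windows, so counts of members and shares of windows are in different units. Related copies count separately, as with Serpina1a, Serpina1b, Serpina1c and Serpina1d for TGANTCA and Serpina3f, Serpina3g and Serpina3i for TTCNNNGAA. A match is a description of letters and not evidence of binding, and Serpina3c and Serpina3n rose without the capital letters matching.

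All 9 Serpina3 members were higher under Af in both genotypes, by log2 0.92 to 3.69 in WT and 1.26 to 4.14 in KO. Serpina3n (ENSMUSG00000021091), the mouse gene usually named as the counterpart of human antichymotrypsin and an inhibitor of granzyme B and leukocyte elastase, had 90.4, 74.4 and 69.7 CPM in the WT_PBS libraries and 529, 845 and 799.6 CPM in WT_Af. In KO it had 55.6, 62.1 and 56.0 CPM under PBS and 691, 1080.3 and 1446 CPM under Af. No Af library came near a PBS library. The rise was 9.08-fold in WT (log2 3.18 ± 0.24 SE, adjusted p = 1.79e-06) and 17.6-fold in KO (log2 4.14 ± 0.24 SE, adjusted p = 2.03e-07).

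Serpina3g, known as serpin 2A of activated T cells and macrophages and an inhibitor of cathepsins, had the next highest mean CPM after Serpina3n of the array over the 12 libraries, though in WT_PBS it was below Serpina3h. Its libraries held 27.5, 37.0 and 27.6 CPM in WT_PBS and 391, 364 and 444 CPM in WT_Af, a rise of 12.9-fold (log2 3.69 ± 0.19 SE, adjusted p = 2.65e-07). In KO the levels were 68.9, 41.1 and 61.2 CPM under PBS and 364, 494 and 359 CPM under Af (log2 2.84 ± 0.19 SE, adjusted p = 5.97e-07). The groups were far apart in both genotypes. Serpina3h, annotated as a pseudogene in GENCODE M21, went from 51.6, 39.96 and 34.2 to 203, 281 and 290.2 CPM in WT and from 36.9, 27.2 and 31.6 to 246, 306 and 328 CPM in KO (6.1-fold and 9.06-fold). Serpina3i went from 10.5, 8.03 and 7.65 to 47.3, 58.3 and 64.6 CPM in WT and from 9.1, 6.32 and 6.15 to 57.4, 75.0 and 72.4 CPM in KO (6.21-fold and 9.01-fold). These neighbours moved by nearly the same factors, and 15.8% of the 50-base windows of Serpina3h also occur in Serpina3i.

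The other array members were lower in level. Serpina3f held 5.92, 5.81 and 6.19 CPM in WT_PBS and 34.2, 42.1 and 53.4 CPM in WT_Af, and 10.2, 7.88 and 11.9 and 34.5, 59.5 and 60.6 CPM in the KO groups, a rise of 6.65-fold and 4.86-fold. Serpina3c went from 5.75, 7.2 and 11.4 to 19.1, 18.2 and 16.1 CPM in WT and from 10.3, 7.8 and 8.66 to 21.3, 17.6 and 28.3 CPM in KO (2.2-fold and 2.4-fold). Together with Serpina3k it had the smallest log2 changes of the array. Serpina3m went from 0.828, 1.13 and 0.756 to 5.57, 11.1 and 12.7 CPM in WT and from 0.853, 0.818 and 0.571 to 11.0, 14.2 and 25.1 CPM in KO (7.01-fold and 13.1-fold). The pseudogene Serpina3e-ps held 2.48, 1.56 and 1.37 and 8.97, 11.5 and 13.1 CPM in the WT groups, and 1.56, 0.929 and 1.41 and 11.1, 13.1 and 15.7 CPM in the KO groups (5.12-fold and 7.67-fold). Groups did not overlap for any of these 4 genes. Serpina3k, at 0.129 ± 0.107 CPM in WT_PBS and 0.713 ± 0.381 CPM in WT_Af, rested on few reads, and its call in WT (adjusted p = 0.0338) was lost without WT_PBS 16, WT_PBS 17, WT_Af 19 or WT_Af 20 (adjusted p up to 0.134) and with 1 CPM added in place of 0.5 (adjusted p = 0.0655). GENCODE M21 gives Serpina3k and Serpina3m the same start, so their reads may not be separable.

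**Figure D2:**
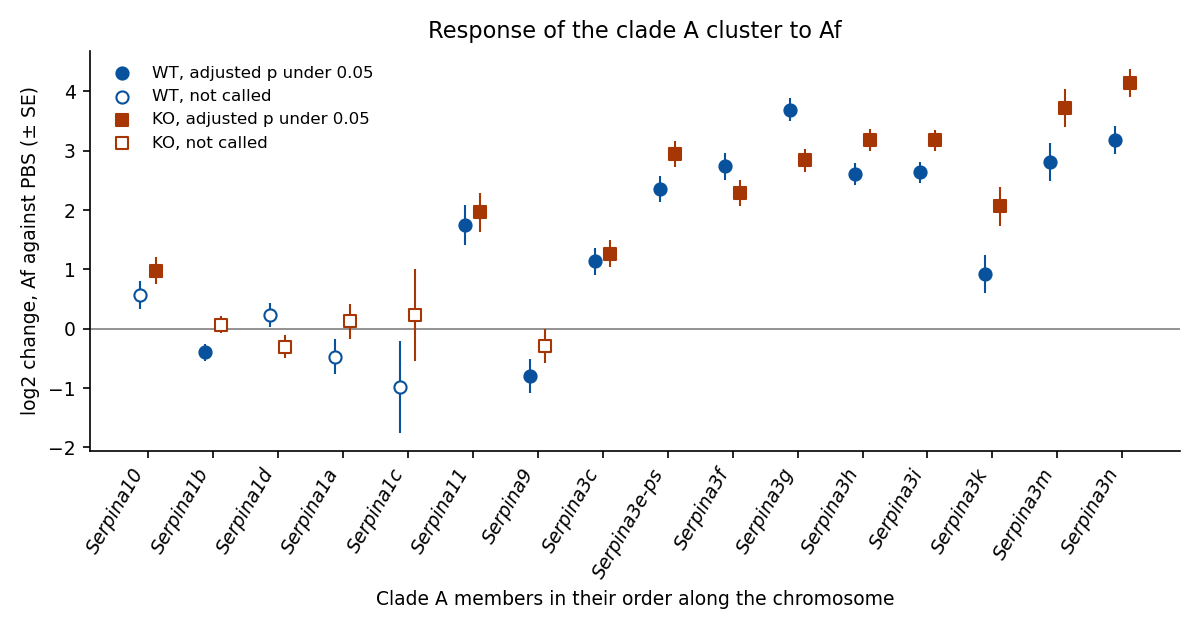
Points give the log2 change from PBS to Af with its standard error for the 16 clade A genes, in their order along chromosome 12 (order only, not to scale), circles for WT and squares for KO, filled where limma's adjusted p was under 0.05. The 9 Serpina3 genes at the right are filled in both genotypes, while of the 4 Serpina1 genes Serpina1b is filled, in WT.

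How far the copies can be separated bears on all of these values. Of the 37 members, 13 had over 10% of their 50-base exon windows in common with another annotated gene and 21 had under 5%. In the Serpina3 array the shared part ran from 4.25% (Serpina3c) and 6.90% (Serpina3n) to 21.6% (Serpina3e-ps) and 21.9% (Serpina3h). In the Serpina1 group it ran from 29.5% (Serpina1b) to 74.2% (Serpina1c). RSEM divides reads that fit several genes by estimate, so single copies in these groups are less certain than their sum. Summed over the 9 Serpina3 members, WT libraries went from 159 to 195 CPM under PBS to between 1239 and 1694 CPM under Af, and KO libraries from 154 to 193 CPM to between 1437 and 2338 CPM.

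The Serpina1 genes, the mouse antitrypsins made mainly by liver, did not follow the array beside them. Their summed level was 26.4 ± 6.15 CPM in WT_PBS, 19.1 ± 2.13 in WT_Af, 19.1 ± 1.64 in KO_PBS and 20.3 ± 1.90 in KO_Af. Serpina1b, the most abundant of the 4, had 18.2 ± 3.57 CPM in WT_PBS and 13.6 ± 1.19 in WT_Af and was called lower (log2 -0.40 ± 0.14 SE, adjusted p = 0.0334), but not in KO (log2 0.07, adjusted p = 0.703). The call was lost without WT_PBS 16, WT_PBS 17 or any WT_Af library (adjusted p up to 0.147). Serpina1a, Serpina1c and Serpina1d were not called in either genotype. Of 10 hepatocyte markers 4 to 8 had reads in a library. Their sum spanned 27.2 to 204 CPM in WT_PBS and 9.47 to 39.1 CPM in WT_Af, then 21.2 to 120 CPM for the KO libraries with PBS and 10.9 to 49.7 CPM for those with Af, and Alb was at 0 to 0.786 CPM throughout. Their part in the level of Serpina1b was not tested.

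Of the other clade A genes, Serpina11 was nearly silent under PBS. It held 0.124, 0.0434 and 0 CPM in WT_PBS and 2.26, 0.622 and 1.57 CPM in WT_Af, and 0.249, 0.0743 and 0.0879 and 3.22, 1.24 and 1.81 CPM in the KO groups (log2 1.75 and 1.96, adjusted p = 0.00113 and 4.02e-04), with 35.7% of its windows shared with the predicted gene Gm28577. Serpina10, the protein Z-dependent inhibitor of factor Xa, rose in KO from 0.913 ± 0.221 to 2.32 ± 0.665 CPM (log2 0.98, adjusted p = 0.0039) and had log2 0.56 in WT (adjusted p = 0.0624). Serpina9, known from germinal centre B cells, was called lower in WT, from 0.799 ± 0.299 to 0.236 ± 0.0468 CPM (adjusted p = 0.0375), a call lost without WT_PBS 16, WT_PBS 17 or any WT_Af library (adjusted p up to 0.118).

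Clade B serpins stay inside the cell, where they protect leukocytes and epithelia from their own granule and lysosomal proteases. The 13 members fall into clusters on chromosome 13 (7 members) and chromosome 1 (6 members). On chromosome 13, Serpinb1a, the mouse counterpart of the human inhibitor of neutrophil elastase, cathepsin G and proteinase 3, rose in both genotypes. Its libraries held 17.1, 22.5 and 18.7 CPM in WT_PBS and 27.8, 29.9 and 29.1 CPM in WT_Af, and 26.2, 26.5 and 26.7 CPM in KO_PBS and 47.9, 36.4 and 34.9 CPM in KO_Af (1.49-fold and 1.48-fold, adjusted p = 0.00279 and 0.00258). The groups did not overlap in either genotype.

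Its copies differed. Serpinb1c went from 0.0414, 0.0868 and 0.189 CPM in WT_PBS to 0.864, 1.048 and 0.786 CPM in WT_Af and from 0.0355, 0.0743 and 0 to 1.2, 0.965 and 1.04 CPM in KO (log2 1.21 and 1.54, adjusted p = 8.84e-05 and 1.11e-05). Serpinb1b moved the other way, from 1.03, 1.82 and 1.51 to 0.72, 0.754 and 1.09 CPM in WT and from 1.95, 1.71 and 1.98 to 0.905, 0.873 and 0.617 CPM in KO (log2 -0.52 and -0.88, adjusted p = 0.0363 and 0.00189). The WT groups of Serpinb1b overlapped, and the WT call was lost without WT_PBS 16, WT_PBS 17, WT_Af 18 or WT_Af 19 (adjusted p up to 0.141). Each of these 3 copies shared at most 6.28% of its windows with another gene.

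Serpinb9, the inhibitor of granzyme B that shields cytotoxic cells and antigen-presenting cells, was abundant and not called: 126 ± 15.7 and 149.9 ± 14.4 CPM in the WT groups, and 129 ± 17.2 and 168 ± 51.5 CPM in the KO groups. Its low-level copy Serpinb9b went from 1.86, 2.26 and 1.13 to 7.58, 8.12 and 7.08 CPM in WT and from 2.24, 2.04 and 2.07 to 11.7, 9.33 and 8.21 CPM in KO (3.68-fold and 3.88-fold, adjusted p = 1.43e-05 and 7.28e-06). The groups did not overlap. Serpinb6a, with the highest mean CPM of the clade over the 12 libraries and a broad inhibitor of trypsin-like and cathepsin G proteases, held 139, 129.9 and 138 CPM in WT_PBS, 133, 135 and 129.9 in WT_Af, 146, 139 and 141 in KO_PBS and 257, 141 and 156 in KO_Af. KO_Af 12 had the high value and the gene was not called (adjusted p = 0.883 and 0.117). Serpinb6b held 113, 89.99 and 83.6 CPM in WT_PBS, 147, 122 and 107 in WT_Af, 89.6, 84.9 and 71.4 in KO_PBS and 175, 138 and 91.3 in KO_Af. It was called higher in KO (log2 0.67, adjusted p = 0.017), but not without KO_Af 12 (log2 0.46, adjusted p = 0.0643), without KO_PBS 11 (adjusted p = 0.0644) or with array weights (log2 0.23, adjusted p = 0.169), and not in WT (adjusted p = 0.14).

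On chromosome 1, Serpinb2 encodes plasminogen activator inhibitor type 2 of macrophages and keratinocytes. Its WT libraries held 0.331, 1.43 and 3.02 CPM under PBS and 8.73, 6.36 and 8.95 CPM under Af (4.73-fold, adjusted p = 0.00162). The KO libraries held 1.78, 0.743 and 1.93 CPM under PBS and 21.2, 11.1 and 12.5 CPM under Af (7.8-fold, adjusted p = 1.88e-04). The PBS values were uneven, yet every Af library was above every PBS library. Of 8 macrophage markers 7 rose and 1 fell in either genotype. The share that rose was 87.5%, beside 24.9% of all genes in WT and 27.3% in KO. The markers went from a summed 553 to 737 CPM in WT_PBS to 3552 to 4853 CPM in WT_Af. In KO they went from 474 to 637 CPM under PBS to 4118 to 4696 CPM under Af. Their part in the changes of Serpinb2 or of the Serpina3 array was not tested. Serpinb10, whose annotated exons overlap those of Serpinb2 on the same strand (6.97% of its windows), went the other way in KO and is described with the genotypes. Serpinb8, an inhibitor of furin, was not called, with means between 13.4 and 15.4 CPM.

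Serpinb5 (maspin), Serpinb11 and Serpinb12, all genes of stratified epithelium, followed the libraries that stood apart. Serpinb12 held 0.911, 0.868 and 17.2 CPM in WT_PBS 15, 16 and 17, 0.384, 0.36 and 0.15 CPM in WT_Af, 0.533, 0.334 and 0.352 CPM in KO_PBS, and 19.4, 0.138 and 0.308 CPM in KO_Af 12, 13 and 14. Serpinb11 held 0.579, 0.477 and 4.16 CPM in WT_PBS, 0.096, 0.197 and 0.0374 CPM in WT_Af, 0.0711, 0.0743 and 0.0879 CPM in KO_PBS and 2.32, 0.138 and 0.501 CPM in KO_Af. The high values were those of WT_PBS 17 and KO_Af 12. Serpinb5 was at 3.5 and 2.71 CPM in these libraries and at most 0.672 CPM elsewhere.

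Serpinb3a, Serpinb3b and Serpinb3c, mouse relatives of the human squamous cell carcinoma antigens, missed the minimum because they reached 0.5 CPM in exactly these 2 libraries. Together they reached 55.0 CPM in WT_PBS 17 and 23.3 CPM in KO_Af 12, and at most 0.124 CPM in any other library. The keratin Krt13, a marker of the layer above the basal cells, followed the same libraries at 239.5 and 136.7 CPM, against at most 0.506 CPM elsewhere. With 0.5 CPM added and all libraries weighted alike, limma called none of Serpinb5, Serpinb11 and Serpinb12 in any comparison over all 12 libraries. Other analyses of the same 12 libraries called Serpinb11 lower in WT: limma with 0.1 CPM added (log2 -2.57, adjusted p = 0.0251), limma with array weights (log2 -1.26, adjusted p = 0.0258), edgeR (log2 -3.84, adjusted p = 0.017) and DESeq2 (log2 -3.95, adjusted p = 9.75e-04). In KO it was called higher by edgeR (log2 3.65, adjusted p = 0.0282) and DESeq2 (log2 3.69, adjusted p = 0.0031), and Serpinb5 by DESeq2 (log2 4.03, adjusted p = 0.0086). Between genotypes under PBS, Serpinb11 was called lower in KO with array weights (log2 -1.42, adjusted p = 0.0482) and by DESeq2 (log2 -4.49, adjusted p = 0.00295). Without WT_PBS 17 and KO_Af 12, Serpinb11 (log2 -0.76, adjusted p = 0.0167) and Serpinb12 (log2 -0.81, adjusted p = 0.00878) were called lower in WT_Af than in WT_PBS, at levels under 1 CPM. The change of Serpinb12 in KO turned from log2 1.27 to -0.33 without KO_Af 12, and that of Serpinb5 in WT from -0.31 to 0.61 without WT_PBS 17. Without WT_PBS 17 Serpinb5 (log2 1.303, adjusted p = 0.0297) and Serpinb11 (log2 1.07, adjusted p = 0.0481) were called higher in KO, and without KO_Af 12 Serpinb12 was called lower in WT (log2 -2.04, adjusted p = 0.0428). Serpinb11 was also called lower in WT without WT_PBS 15, WT_PBS 16, KO_Af 12 or KO_Af 13 (adjusted p from 0.0227 to 0.0403).

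**Figure D3:**
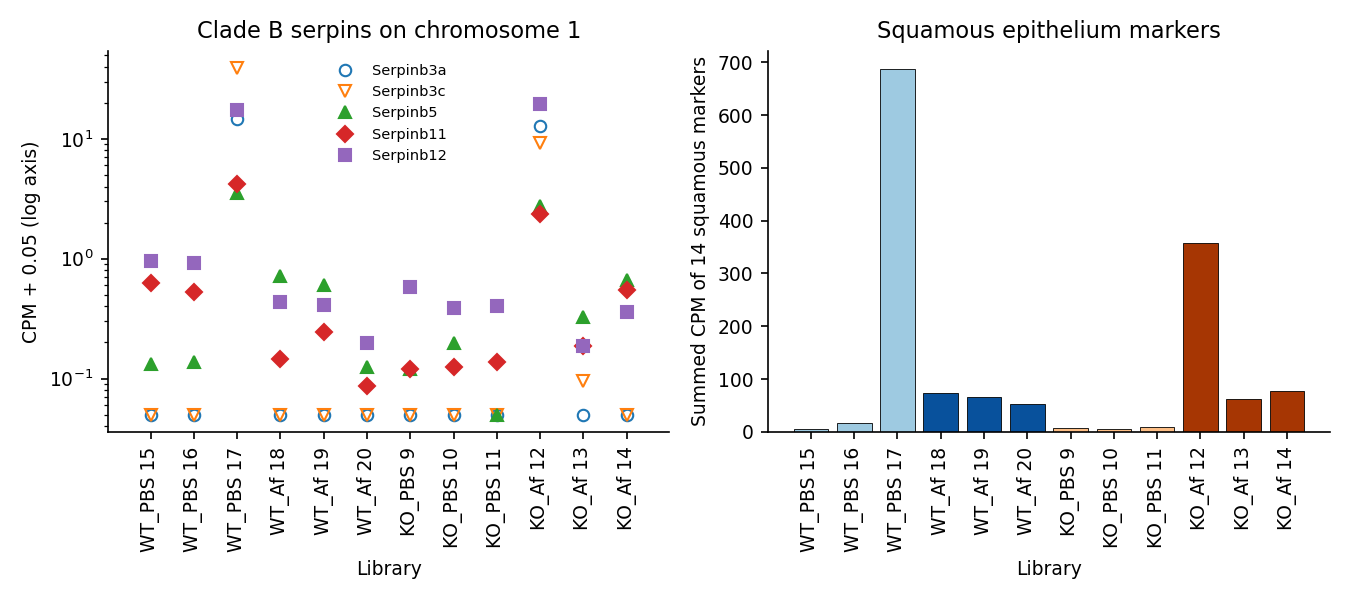
The left panel shows the CPM of 5 clade B genes in each library on a log axis, with 0.05 CPM added so that 0 can be drawn. The right panel shows the summed CPM of the 14 squamous epithelium markers. Both peak in WT_PBS 17 (687 CPM) and KO_Af 12 (358 CPM).

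Among the secreted regulators of fibrinolysis and clotting, Serpine2, protease nexin 1 with thrombin and urokinase as targets, held 131, 74.1 and 71.5 CPM in WT_PBS, 141, 126 and 119 in WT_Af, 66.8, 79.3 and 83.7 in KO_PBS and 122, 139 and 107 in KO_Af. Its rise was 1.45-fold in WT, where WT_PBS 15 overlapped the Af libraries, and 1.59-fold in KO (adjusted p = 0.0413 and 0.0129). The WT call failed in 12 of 23 alternative analyses (adjusted p up to 0.159), among them those without WT_PBS 16, WT_PBS 17, any WT_Af library, KO_PBS 10 or KO_PBS 11, and the KO call without KO_PBS 9 (adjusted p = 0.0545).

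Serpind1, heparin cofactor 2, held 2.28, 3.04 and 3.12 CPM in WT_PBS, 5.23, 3.18 and 4.08 in WT_Af, 2.59, 1.9 and 2.59 in KO_PBS and 4.84, 2.85 and 6.59 in KO_Af. It was called in KO (1.77-fold, adjusted p = 0.0181), not in WT (adjusted p = 0.143), and the KO call was lost without KO_PBS 10 or KO_Af 14 (adjusted p up to 0.0782). Serpinc1, antithrombin, held 0.497, 0.868 and 0.189 CPM in WT_PBS, 1.87, 0.885 and 1.01 in WT_Af, 0.853, 0.0372 and 0.132 in KO_PBS and 0.944, 0.919 and 0.81 in KO_Af, and was not called (adjusted p = 0.0759 and 0.0568). Both are made mainly by liver and were at low levels here.

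Serping1, the most abundant member per length under PBS, went the other way. Its libraries held 694, 625 and 593 CPM in WT_PBS, 494, 525 and 459 in WT_Af, 581, 579 and 582 in KO_PBS and 459.8, 503 and 501 in KO_Af. Every Af library lay below every PBS library, and the fall was 1.29-fold in WT (adjusted p = 0.00616) and 1.19-fold in KO (adjusted p = 0.0356). The KO call was lost in 10 of 23 alternative analyses (adjusted p up to 0.0866), among them those without WT_PBS 16, any KO_PBS library, KO_Af 12 or KO_Af 14. Serpinf1, pigment epithelium-derived factor, an inhibitor of vessel growth without protease inhibition, held 66.1, 59.2 and 59.3 CPM in WT_PBS, 40.4, 35.7 and 23.3 in WT_Af, 46.8, 42.5 and 45.1 in KO_PBS and 47.0, 27.0 and 30.9 in KO_Af. It fell 1.89-fold in WT (adjusted p = 0.0035), and in KO had log2 -0.39 (adjusted p = 0.13), or -0.62 (adjusted p = 0.018) without WT_PBS 17 and KO_Af 12. Serpini1, neuroserpin, held 1.7, 2.0 and 1.61 CPM in WT_PBS, 1.82, 1.77 and 1.83 in WT_Af, 2.27, 2.94 and 2.37 in KO_PBS and 1.97, 1.38 and 1.73 in KO_Af, and was called lower in KO (log2 -0.47, adjusted p = 0.0203), a call lost without KO_PBS 10 or KO_Af 13 (adjusted p up to 0.089).

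The comparison of KO with WT asks which serpins differ with the loss of Rgs4. Under PBS, 2 members were higher in KO (Serpinb10 and Serpina3g) and 1 was lower (Serpinh1), against 3.12% of all genes called. With array weights Serpina1b (log2 -0.54, adjusted p = 0.0127) and Serpina1a (log2 -0.82, adjusted p = 0.0481) were called lower in KO as well. Under Af limma called none of the 37 (0.0627% of all genes), and neither edgeR nor DESeq2 on the recovered reads called any. In that limma comparison 5 of the 37 had an unadjusted p under 0.05, beside 1906 of the 17552 genes tested. Averaged over both exposures Serpinb1a was higher and Serpinh1 lower in KO (1.93% of all genes called). The interaction, which tests whether the response to Af differs between genotypes, called none with limma (0.0057% of all genes). In this test 9 of the 37 had an unadjusted p under 0.05, beside 1840 of the 17552 genes tested. edgeR also called none, and DESeq2 called Serpinb11 and Serpinh1. Of the 16 members that rose in both genotypes, 13 had the larger log2 change in KO, and none of these differences passed the interaction test with libraries weighted alike, with Serpina3n at log2 0.95 (adjusted p = 0.327). The 16 include the 9 Serpina3 copies of a single locus, and the matching share over all genes was not counted. With array weights, the interaction was called for Serpina3n (log2 1.15, adjusted p = 0.0084), Serpina3k (log2 1.35, adjusted p = 0.0322), Serpina3m (log2 1.25, adjusted p = 0.0382), Serpina1a (log2 1.36, adjusted p = 0.0431), Serpinb10 (log2 -1.61, adjusted p = 0.0028) and Serpinh1. Under Af, array weights also gave higher levels in KO for Serpina3n (log2 0.78, adjusted p = 0.0125), Serpina3k (log2 1.19, adjusted p = 0.0148) and Serpina3m (log2 1.054, adjusted p = 0.0203). These comparisons share the PBS or Af libraries with the exposure comparisons above and are not independent of them.

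Serpinh1 (ENSMUSG00000070436, chromosome 7, 99345376 to 99353239) was the member whose genotype call under PBS held in every alternative analysis. It encodes Hsp47, the chaperone of the endoplasmic reticulum that folds procollagen, and is a known target of heat shock factor 1. The libraries held 499.9, 335 and 386 CPM in WT_PBS and 206, 195 and 213 CPM in KO_PBS. Every KO_PBS library was below every WT_PBS library, 1.96-fold lower in the fit (log2 -0.97 ± 0.13 SE, adjusted p = 0.00364), with an adjusted p of at most 0.0261 in the 23 alternative analyses. Under Af the levels were 424, 470.1 and 404 CPM in WT and 423, 445 and 379 CPM in KO, which overlapped. With Af Serpinh1 rose in KO (2.03-fold, adjusted p = 6.22e-05). In WT it had log2 0.11 (adjusted p = 0.53) and was called higher with array weights (log2 0.29, adjusted p = 0.0284). The difference between these responses was log2 0.91 ± 0.19 SE and missed the threshold in limma (adjusted p = 0.10), but passed it with array weights (log2 0.65, adjusted p = 0.0243) and in DESeq2 (log2 0.94, adjusted p = 5.10e-04). The averaged difference (log2 -0.51, adjusted p = 0.0199) was lost without WT_Af 19 or any KO_PBS library (adjusted p up to 0.0715).

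Heat shock genes were lower beside it under PBS. Of 18 heat shock factor 1 targets 16 (88.9%) were lower in KO_PBS than in WT_PBS and none higher, beside 3.12% of all genes called. Their median log2 difference was -1.11, beside 0.01 over all genes. They summed to between 7713 and 10726 CPM in the WT_PBS libraries, against 3193 to 3540 CPM in KO_PBS. Hsph1, a co-chaperone of Hsp70, was at 239.7 ± 50.4 against 32.1 ± 1.59 CPM, and Hspa8, the constitutive Hsp70, at 2229 ± 223 against 878 ± 85.6 CPM. In KO, 10 of the 18 rose with Af and 1 fell, and in WT 3 rose and 4 fell. The shares that rose were 55.6% in KO and 16.7% in WT, beside 27.3% and 24.9% of all genes. Under Af, where Serpinh1 stood at log2 -0.06 between genotypes, the 18 targets had a median log2 of -0.49. Of these, 1 was called lower in KO (Hsph1, 189 ± 45.7 against 66.1 ± 10.4 CPM, adjusted p = 0.012). An unadjusted p under 0.05 was reached by 15 of the 18, beside 1906 of the 17552 genes tested. This list was made with earlier results of these data in view, so it is no independent evidence of direction, and the part of its genes in the level of Serpinh1 was not tested.

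The clients and partners of Hsp47 moved less. Of 28 collagen and collagen-processing genes, 3 were lower in KO_PBS and none higher, 10.7% called beside 3.12% of all genes. These were the prolyl hydroxylase subunits P4ha1 (136 ± 7.84 against 70.9 ± 5.4 CPM, adjusted p = 5.49e-04) and P4ha2 (60.7 ± 1.055 against 39.7 ± 2.84 CPM, adjusted p = 0.0087) and the prolyl isomerase Fkbp14 (31.3 ± 3.17 against 15.2 ± 2.34 CPM, adjusted p = 0.0127). The summed level of the 28 was 12545 CPM in WT_PBS 15, the library with the highest Serpinh1 of its group, 6404 and 6522 CPM in the other WT_PBS libraries, and 5780 to 5991 CPM in KO_PBS. Fibroblast markers were also highest in WT_PBS 15, at 5253 CPM against 2431 and 2452 CPM in its group and 2117 to 2319 CPM in KO_PBS. Af raised 17 of the 28 in KO and 7 in WT, among them Lox, the collagen crosslinking enzyme (log2 2.09 in KO, 0.65 in WT), and lowered 1 in KO and 4 in WT. The shares that rose were 60.7% in KO and 25.0% in WT, beside 27.3% and 24.9% of all genes.

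Serpinb10 (bomapin, a nuclear serpin of myeloid cells; ENSMUSG00000092572, chromosome 1, 107529003 to 107549271, a polymorphic pseudogene in GENCODE M21) was higher in KO under PBS. Its libraries held 1.16, 1.78 and 2.13 CPM in WT_PBS and 5.33, 5.5 and 5.58 CPM in KO_PBS (2.78-fold, adjusted p = 0.0156). Under Af they held 1.68, 2.26 and 2.1 CPM in WT and 4.13, 1.65 and 1.7 CPM in KO. KO_Af 12 was the Af library nearest to the KO_PBS level, and the gene fell with Af in KO (log2 -1.09, adjusted p = 0.00511) but was not called in WT. The call under PBS was lost without WT_PBS 15 or any KO_PBS library (adjusted p up to 0.0755), with log2 between 1.29 and 1.49. Averaged over exposures it missed the threshold (log2 0.82, adjusted p = 0.0551) and was called without KO_Af 12 (log2 0.64, adjusted p = 0.0301) or KO_Af 13 (log2 0.91, adjusted p = 0.0355). Over all libraries it was called with 1 CPM added (log2 0.72, adjusted p = 0.0481), with array weights (log2 0.57, adjusted p = 0.0052) and by DESeq2 (log2 1.004, adjusted p = 0.0039). Neutrophil markers had a summed level of 147 to 228 CPM in WT_PBS and 289 to 531 CPM in KO_PBS, where 531 CPM was the sum of KO_PBS 10. Of these 9 markers 2 were called higher (22.2%, beside 3.12% of all genes called). Of 7 mast cell markers limma called none, and 1 had an unadjusted p under 0.05, beside 2912 of the 17552 genes tested. In KO_PBS 2 of the 7 markers had the higher mean and 5 the lower mean, and their median log2 difference was -0.13. The mast cell markers summed to 186 to 217 CPM in WT_PBS and to 283 to 309 CPM in KO_PBS. Their part in the level of Serpinb10 was not tested.

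Serpina3g was the other member higher in KO_PBS, at 57.1 ± 14.3 against 30.7 ± 5.42 CPM (1.82-fold, adjusted p = 0.0348), with groups that did not overlap. The call was lost in 9 of 23 alternative analyses (adjusted p up to 0.132), among them those without WT_PBS 15, WT_PBS 17, WT_Af 19, KO_PBS 9 or KO_PBS 11, and without both WT_PBS 17 and KO_Af 12 (adjusted p = 0.0829). Its neighbour Serpina3f had log2 0.68 (adjusted p = 0.135, or 0.01 with array weights and 0.0408 in DESeq2), while Serpina3n had log2 -0.42 (adjusted p = 0.418). Markers of T and NK cells had a summed level of 38.3 to 72.4 CPM in WT_PBS and 94.4 to 112 CPM in KO_PBS. Of these 8 markers 2 were called higher (25%, beside 3.12% of all genes called). Their part in the level of Serpina3g was not tested. Serpinb1a averaged log2 0.44 ± 0.09 SE higher in KO (adjusted p = 0.0307), and every KO library was above every WT library of the same exposure. That call was lost without WT_PBS 15, WT_PBS 17, any WT_Af library or any KO_PBS library (adjusted p up to 0.0889). Under PBS alone it was called without KO_Af 12 (log2 0.45, adjusted p = 0.0175). Over all libraries it was called under PBS with array weights (log2 0.35, adjusted p = 0.0161) and by DESeq2 (log2 0.44, adjusted p = 0.0404).

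**Figure D4:**
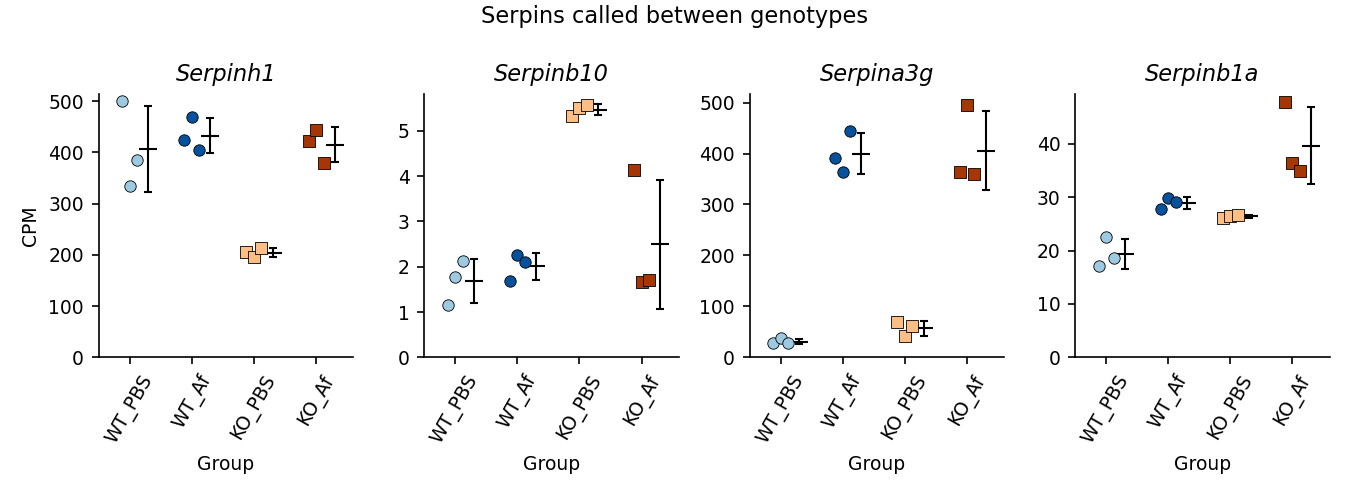
CPM per library (points) with the mean and SD of each group (bars to the right, n = 3) for the 4 serpins called in a comparison of genotypes. KO_PBS is the low group for Serpinh1 (195 to 213 CPM) and the high group for Serpinb10 (5.33 to 5.58 CPM).

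Proteases from a list of serpin targets and related proteases, among them Cpa3 and the tryptases Tpsab1 and Tpsb2, were also measured. Of the 39 tested, 18 rose and 3 fell with Af in WT, and 24 rose and 2 fell in KO. The median log2 was 0.45 in WT and 0.71 in KO, beside -0.01 over all genes. The shares called were 53.8% and 66.7%, beside 49.1% and 55.0% of all genes. The lysosomal cathepsins Ctsb and Ctsl rose from 717 ± 57.2 to 2197 ± 122 CPM and from 211 ± 29.8 to 698 ± 51.7 CPM in WT. The mucosal mast cell proteases Mcpt1 and Mcpt2, at most 0.189 CPM in any PBS library, reached 4.96 ± 1.33 and 3.01 ± 0.569 CPM in WT_Af. Of 7 other mast cell markers, 1 rose and none fell in WT (14.3% called), and 3 rose and 1 fell in KO (57.1% called). Their summed level went from 186 to 217 CPM in WT_PBS to 151 to 169 CPM in WT_Af. In KO it went from 283 to 309 CPM under PBS to 116 to 182 CPM under Af. In KO_PBS 2 of the 39 were higher than in WT_PBS, 5.13% beside 3.12% of all genes called. These were granzyme A, Gzma (23.5 ± 2.52 against 9.42 ± 2.98 CPM, adjusted p = 0.0108), and Casp8 (59.1 ± 0.758 against 46.3 ± 3.71 CPM, adjusted p = 0.0315).

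Of 31 plasminogen and coagulation genes tested, 10 rose and 7 fell in WT and 15 rose and 6 fell in KO (median log2 0.16 and 0.42). The shares called were 54.8% and 67.7%, beside 49.1% and 55.0% of all genes. Tissue factor F3, the trigger of clotting, rose by log2 1.52 in WT and 2.22 in KO, and F10 by 2.53 and 2.72. Vitronectin Vtn, an adhesive protein of plasma and matrix, changed by log2 -1.66 and -2.22, from 19.9 ± 3.1 to 5.91 ± 0.15 CPM in WT. Tissue factor pathway inhibitor 2, Tfpi2, rose by log2 2.49 and 3.32.

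Protease inhibitors of other families were split more evenly. Of 31 tested, 8 rose and 9 fell in WT and 9 rose and 6 fell in KO (median log2 -0.08 and 0.03). The shares called were 54.8% and 48.4%, near those of all genes. Timp1, an inhibitor of metalloproteinases, rose from 10.2 ± 3.13 to 339 ± 147 CPM in WT and from 7.67 ± 0.686 to 543 ± 132 CPM in KO. Wfdc17 and the cysteine protease inhibitor Cstb rose by log2 2.89 and 1.81 in WT. Reck, a membrane-anchored inhibitor of metalloproteinases, fell from 88.0 ± 11.7 to 30.9 ± 1.73 CPM in WT.

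Glucocorticoids are known to raise Serpina3 transcription, so 16 glucocorticoid-induced genes were read beside the family. With Af 3 rose and 7 fell in WT (median log2 -0.73), and 7 rose and 3 fell in KO (median log2 0.63). The share called was 62.5% in either genotype, beside 49.1% of all genes in WT and 55.0% in KO. The shares that rose were 18.8% in WT and 43.8% in KO, beside 24.9% and 27.3% of all genes. In KO_PBS 2 of the 16 were lower than in WT_PBS, 12.5% beside 3.12% of all genes called. These were Fkbp5 (15.5 ± 2.64 against 139 ± 16.1 CPM, adjusted p = 0.00332) and Zbtb16 (18.2 ± 4.5 against 241 ± 18.5 CPM, adjusted p = 0.011). KO_Af 14 was high in its group for the 16 genes, with a summed level of 4475 CPM against 2434 and 2586 CPM, and Fkbp5 at 219 CPM against 47.6 and 62.8 CPM. The part of these genes in the level of the Serpina3 members was not tested.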

How the data were processed

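The authors deposited one table of RSEM gene values in CPM (reads scaled to library size), adjusted by TMM. Per the submitters' processing notes, cutadapt 1.18, STAR 2.7.6a and RSEM 1.3.0 were used, with builds GRCm38 and GRCh38 named without a role; whether counting used strand is not stated there. Libraries were made with Illumina TruSeq mRNA kits, per the labels' protocols. The deposited signal (TMM-scaled CPM) came in steps that gave whole reads for 100% of values (tolerance 0.01), so reads per library were recovered and count tests could be run as alternatives. Identifiers were matched to GENCODE M21 (49326 matched, 99.5%), and 26 symbols had been turned into dates in the table.

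The main test was limma 3.58.1 with a mean-variance trend (R 4.3.3) on log2(CPM + 0.5), 1 fit over 4 groups of 3 libraries, with Benjamini-Hochberg adjustment over the 17552 genes that reached 0.5 CPM in 3 or more libraries. Fold changes are on that scale and understate changes of low genes. Alternatives were another pseudocount, filter, scaling or variance model, edgeR 4.0.16, DESeq2 1.42.0 and leaving out libraries. The fit was tested on simulated data. Correlations of replicate libraries were 0.9753 to 0.9937, and no 2 agreed within sampling noise. The members, gene lists and tests were chosen with earlier results of these data known. Values in every library are given for members called in both Af comparisons with an absolute log2 change of at least 1 in both, members called between genotypes, the most abundant member of each clade, and members whose Af call depends on WT_PBS 17 and KO_Af 12. From the other lists the named genes are some of those with the smallest p, or those called between genotypes. Exon windows of 50 bases found elsewhere in GENCODE M21 transcripts were counted as shared, and promoters came from RefSeq (GRCm38.p6). The values of 1 member are not reported here; it stays in the counts and sums.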

Additional observations from a re-analysis of the deposited data

Results flagged for a closer look

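Serpinb11 was set apart because its response to Af ran in opposite directions in the genotypes, with every WT_Af library below every WT_PBS library and every KO_Af library above every KO_PBS library. The difference between the responses was log2 2.56, with an adjusted p of 0.277 in limma, while DESeq2 gave log2 7.64 with an adjusted p of 5.07e-04. The gene is at few reads in most libraries, and its highest values were in WT_PBS 17 and KO_Af 12, the libraries with high squamous epithelium markers. Without both libraries limma did not call the difference either, and DESeq2 was not run without them. The part of the squamous epithelium in the difference was not tested.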

How the results depend on the processing

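Of 50 called results among the serpins, 35 were called under every alternative run: 15 of 21 for Af in WT, 19 of 24 for Af in KO, 1 of 3 for genotype under PBS and 0 of 2 for genotype averaged over exposures. Counts for Af stayed within 1.5 times the reported ones, at 15 to 26 in WT and 21 to 27 in KO. For genotype under PBS the count of 3 became 8 with array weights and 6 with DESeq2, and 1 to 5 when single libraries were left out. For genotype under Af it became 4 with array weights. For the average the count of 2 became 1 with no filter, 5 with array weights, 5 with DESeq2 and 0 to 4 when single libraries were left out. For the interaction it became 6 with array weights, 2 with DESeq2 and 0 to 1 when single libraries were left out. The causes were not tested. These results, none called in the reported fit, changed sign (log2). For genotype under Af, Serpina3g was -0.0345 with CPM without TMM, -0.0347 with array weights and -0.1397 to 0.0907 when single libraries were left out (below 0 without WT_Af 18, WT_Af 19 or KO_Af 13). Serpinb10 there was -0.2327 with array weights, -0.2006 to 0.3511 when single libraries were left out (below 0 without KO_Af 12) and -0.2006 without WT_PBS 17 and KO_Af 12. Serpinh1 there ranged from -0.1093 to 0.0061 (above 0 without WT_Af 19 or KO_Af 14), and for Af in WT from -0.0243 (without WT_PBS 16) to 0.2643. Serpinb5 for Af in WT ranged from -0.778 to 0.6107 (above 0 without WT_PBS 17 or WT_Af 20) and was 0.6107 without WT_PBS 17 and KO_Af 12. Serpinb12 for Af in KO was -0.0801 with array weights, -0.3291 (without KO_Af 12) to 2.1536 when single libraries were left out, and -0.3291 without WT_PBS 17 and KO_Af 12. No paired analysis was possible because the library numbers in the labels are all different. Genes under 1 CPM rest on few reads.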
